A study of Mus musculus with 4 samples.

Results

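The proteins of the cytosolic ribosome were followed in whole mouse embryos at embryonic day 9.5 that lacked Cop1, against embryos of the control group. Their genes were taken by name, as every gene whose symbol consists of Rpl, Rps or Rplp, a number and at most an ending a, x, l or l1, together with Rpsa. Of 18193 genes with at least 1 probe set that the platform's annotation lists for them alone, 48 were of this kind. These 48 genes were 26 of the large and 22 of the small subunit, and they held 104 of the 45037 probe sets tested. A RefSeq gene table lists 83 protein-coding genes under the same rule, of which 47 were measured in this way. A further 28 occurred only on probe sets listed for several genes, often a pseudogene beside the gene, and 8 on no listed probe set. The remaining member, Rps4l, is listed by RefSeq as a transcribed pseudogene.

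The ribosome has a small subunit, which holds the mRNA and reads its codons, and a large subunit, which joins the amino acids. Each subunit is built in the nucleolus from ribosomal RNA and proteins that are needed in equal numbers, and growing embryonic tissue spends much of its synthesis on them. The mRNAs of ribosomal proteins are among the most abundant of the cell, and in mammals they begin with a run of pyrimidines after a first C, the TOP sequence, through which mTORC1 controls their translation. Many of the genes have processed pseudogenes of nearly the same sequence.

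The Cop1KO group came from embryos null for Cop1, which encodes an E3 ubiquitin ligase. The control group came from embryos with both or 1 functional copy of the gene (+/+ or +/-), although its arrays are titled wild-type. Each genotype is 1 pool of RNA from 6 whole embryos. The pools were split into 2 portions, and every portion was hybridised to its own Affymetrix array, 4 in all. The 2 arrays of a genotype thus measure the same RNA, so that each p-value below rests on the spread between portions and compares 2 pools, not embryos. As whole embryos were pooled, fewer cells of a type and less RNA per cell cannot be told apart.

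Values are the authors' log2 expression values, and each difference is the Cop1KO mean minus the control mean. Portions of the same pool correlated across probe sets with a Pearson's r of 0.998 in both genotypes, and a member probe set differed between portions by a median of 0.026 log2 units in the Cop1KO pool and 0.027 in the control pool. Cop1 itself read 9.67 and 9.77 on the Cop1KO arrays, against 11.35 and 11.26 on the control arrays, and whether the deletion removes the sequence it probes is not given in the sources used here. As means of a pool, the embryonic globin genes Hbb-y, Hbb-bh1 and Hba-x read between 14.31 and 14.45 and the heart genes Myh6 and Tnnt2 between 9.64 and 9.88, while 4 trophoblast and decidua markers read between 3.29 and 3.71. Over the 7 embryo proper markers the summed linear level was 5143 and 5077 on the Cop1KO arrays, against 5505 and 5642 on the control arrays. None of the 7 passed both limits, against 11.6% of all genes. Meox1 and Pax6, both lower, and Nkx2-5, higher, passed the adjusted p alone in limma, as did 33.9% of all genes. The differences of the 7 ran from -0.52 for Meox1 to 0.36 for Nkx2-5, with a median of -0.098. Of 7 markers of yolk sac endoderm, Alb, Ttr and Afp fell, against 8.06% of all genes. The summed linear level of the 7 was 2508 and 2510 on the Cop1KO arrays, against 4813 and 5026 on the control arrays. Afp makes up most of that sum. The median difference of the list was -0.11, with Apoa4 higher by 0.38 (adjusted p = 0.0272, short of the fold limit) and Apoa1, Apob and Rbp4 between -0.11 and 0.049. The part of these cells in the results below was not tested.

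On the deposited scale most ribosomal protein mRNAs read nearly the same in embryos without Cop1 as in control embryos. Each gene was first represented by its brightest probe set. By that measure 37 of the 48 genes (77.1%) differed by less than 0.1 log2 units, which held for 5843 of all 18193 genes (32.1%). Most of these 37 were very bright. With a brightest probe set of at least 13 it held for 32 of 34 members (94.1%), against 59.8% of all 102 genes so bright. These 102 include the members, and it held for 42.6% of the 68 others. Below 13 it held for only 5 of 14 members (35.7%), among them Rps16 and Rpl3l, which read near the bottom of the range. The median difference was 0.029 over the 48 genes and -0.025 over all genes. With arrays centred on their median both were lower, at -0.035 for the 48 genes and -0.088 for all genes. Centred on the poly-A spikes, RNAs added to each sample as a labelling control, they were -0.20 and -0.26. On that scale 44 of the 48 differences were negative, against 14 of 48 as deposited. The spike medians were 7.67 and 7.83 on the Cop1KO arrays, against 7.40 and 7.63 on the control arrays. The 2 portions of the control pool thus differed by about as much as the genotypes, so this scale is itself uncertain. Rose and fell are written only of genes or probe sets with a change of 1.5-fold or more and an adjusted p below 0.05 in limma. On these terms 1 of the 48 genes rose and 1 fell, against 3.58% and 8.06% of all genes (11.6% in either direction). The 1 that fell, Rps4l, is the member listed as a transcribed pseudogene. An adjusted p under 0.05 alone was reached by 5 of the 48 genes, 3 of them higher and 2 lower, against 33.9% of all genes (12% higher and 21.8% lower). Both Cop1KO arrays lay above both control arrays for 27 of the 48 genes and below them for 6, which happened for 28.9% and 39.3% of all genes.

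**Figure D1:**
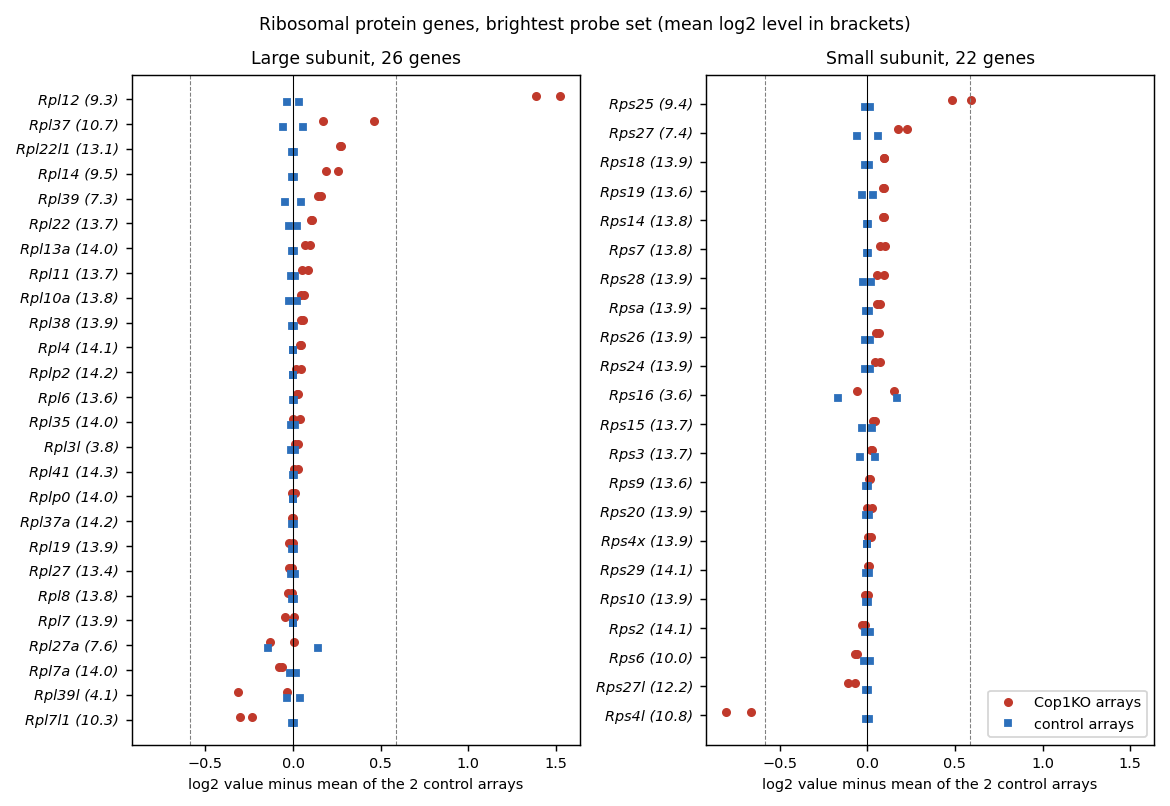
Value of each array minus the mean of the 2 control arrays (log2, horizontal axis) for the brightest probe set of the 26 large subunit genes (left) and the 22 small subunit genes (right), with Cop1KO arrays as red circles, control arrays as blue squares, and dashed lines at the 1.5-fold limit. Points of most genes lie within 0.1 of 0, Rpl12 lies beyond the limit on the high side and Rps4l beyond it on the low side.

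The gene that rose was Rpl12, whose protein sits at the base of the stalk, the flexible arm of the large subunit that recruits translation factors. Its only probe set of its own, 1435655_at, read 9.99 and 10.12 on the Cop1KO arrays, against 8.57 and 8.64 on the control arrays. All Cop1KO values lay above all control values, and the difference of 1.45 (SE 0.08) was 2.74-fold (limma, adjusted p = 0.000854). With a mean of 9.33 this probe set was dim beside the 34 member genes that read at least 13. As given below, dim probe sets of Rps24, Rpl41 and Rps10 rose and one of Rps9 fell, while the brightest ones of these genes did not. Rpl12 has no brighter probe set to set beside its own. The other stalk genes measured were much brighter and nearly level. Rplp0, which anchors the stalk, read 14.06 and 14.04 on the Cop1KO arrays, against 14.05 and 14.04 on the control arrays. Rplp2, one of the acidic proteins that make up the tip, read 14.21 and 14.18 on the Cop1KO arrays, against 14.16 on both control arrays. The groups overlapped for Rplp0, and for Rplp2 the Cop1KO arrays lay above by a mean of 0.031.

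Elsewhere in the large subunit no brightest probe set passed both limits. Rpl11, which binds the 5S ribosomal RNA and, when free, restrains the p53 regulator MDM2, read 13.78 and 13.75 on the Cop1KO arrays, against 13.70 and 13.69 on the control arrays (adjusted p = 0.456). Of 8 proteins listed for the rim of the tunnel through which the new chain leaves, 4 had a probe set of their own. Their differences ran from -0.011 for Rpl19 to 0.15 for Rpl39. The only probe set of Rpl39 was dim, at a mean of 7.30, beside 13.70 to 13.95 for the brightest ones of Rpl19, Rpl22 and Rpl35. Rpl38, whose loss in mice alters the axial skeleton, differed by 0.051. Rpl37 had the second highest difference of the subunit, 0.32, with 10.97 and 10.69 on the Cop1KO arrays, against 10.45 and 10.57 on the control arrays, and an adjusted p of 0.106. Leaving out one array moved it between 0.17 and 0.46. Behind it and Rpl22l1, Rpl14 stood at 0.22, with 9.61 and 9.55 on the Cop1KO arrays, against 9.35 and 9.36 on the control arrays (adjusted p = 0.0559). Both Rpl37 and Rpl14 read higher on every Cop1KO array than on any control array, and neither passed the test. The lowest member among the usual large subunit proteins was Rpl7a, with 13.98 and 13.97 on the Cop1KO arrays, against 14.03 and 14.06 on the control arrays.

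In the small subunit the largest positive difference was that of Rps25, a protein of the head needed by several viral and cellular internal ribosome entry sites. It read 9.63 and 9.75 on the Cop1KO arrays, against 9.14 and 9.17 on the control arrays. The groups were well apart, and the difference of 0.54 (SE 0.07, limma, adjusted p = 0.00597) stood just under the fold limit at 1.45-fold. As for Rpl12, the value rests on the only probe set of the gene's own. It was dim, at a mean of 9.42, and there is no brighter one to set beside it. Rps25 passed both limits without Cop1KO replicate 1 (0.59, adjusted p = 0.0289) and with the table quantile normalized once more (0.60, adjusted p = 0.00399). Over 12 alternative settings its difference ran from 0.30 to 0.60 and its adjusted p from 7.44e-05 to 0.217. The other 9 measured genes of the head, which turns during translocation, differed by -0.0044 for Rps10 to 0.094 for Rps18. Among them, Rps16 read only 3.59 in the Cop1KO pool and 3.54 in the control pool. That is near the bottom of the range, so its small difference says little about the gene. The body and platform hold the decoding site and bind the mRNA. Of 12 measured genes listed for them none passed either limit (limma), against 33.9% of all genes past the adjusted p alone. The extremes there were Rps27, with 7.49 and 7.44 on the Cop1KO arrays, against 7.33 and 7.21 on the control arrays, and Rps6, the target of S6 kinase, with 9.95 and 9.96 on the Cop1KO arrays, against 10.04 and 10.01 on the control arrays. Of 18 listed genes mutated in Diamond-Blackfan anaemia, an inherited failure of red cell formation, 11 were measured, with a median of 0.059. They held 0 rises and 0 falls, against 3.58% and 8.06% of all genes. Of 7 measured primitive erythroid genes 0 rose and 1 fell, against 3.58% and 8.06% of all genes, with a median of -0.050. Klf1, a regulator of erythroid genes, fell (limma, adjusted p = 0.00329). It read 8.76 in the Cop1KO pool and 9.55 in the control pool. Alas2 and Slc4a1 differed by 0.072 and 0.011, and neither they nor the globins named above passed the test.

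Large and small subunit genes were set side by side. The median difference was 0.023 for the 26 large subunit genes and 0.045 for the 22 small subunit genes, and the large minus the small median was -0.022. Over the 4 pairings of a Cop1KO with a control array this value lay between -0.035 and 0.0011. Between the 2 Cop1KO portions it was 0.021 and between the 2 control portions -0.011, which is about the size of the value between genotypes. Among brightest probe sets of at least 13, which 18 large and 16 small subunit genes had, the medians were 0.023 for the large and 0.048 for the small subunit, and the highest and lowest were 0.27 and -0.074 for the large, 0.094 and -0.023 for the small subunit. These values are descriptions, and no test was made over the members. Their sign depends on the scale. With every array centred on its median the medians were -0.040 for the large and -0.019 for the small subunit, beside a median of -0.088 over all genes.

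Paralogs are genes that arose as copies of a ribosomal protein gene, and 6 of 8 listed were measured, with a median of -0.13. They held 0 rises and 1 fall, against 3.58% and 8.06% of all genes. Rps4l, a relative of Rps4x, fell, with 10.37 and 10.51 on the Cop1KO arrays, against 11.17 and 11.18 on the control arrays. The difference was -0.73 (SE 0.08), or 1.66-fold (limma, adjusted p = 0.00308), and it passed both limits under each of 12 alternative settings, between -0.97 and -0.66. Rps4x itself read 13.88 in the Cop1KO pool and 13.87 in the control pool. Rpl7l1, a relative of Rpl7 that in human cells is found on nucleolar precursors of the large subunit, was lower on all 3 of its probe sets. The brightest, 1426386_at, read 10.16 and 10.09 on the Cop1KO arrays, against 10.39 and 10.40 on the control arrays, and reached only the adjusted p (-0.27, adjusted p = 0.0327, between 0.000906 and 0.135 over the 10 alternative settings in which this probe set stood for the gene). The next, 1452049_at, read 9.77 and 9.87 on the Cop1KO arrays, against 10.55 and 10.56 on the control arrays, and fell by 0.74 on the log2 scale (adjusted p = 0.00246). The dimmest, 1439780_at, read 6.85 and 6.75 on the Cop1KO arrays, against 7.73 and 7.75 on the control arrays, and fell by 0.94 (adjusted p = 0.00145). The groups were apart on all 3 probe sets, and the first 2 were designed from the same source sequence. The 3 probe sets of Rpl7 differed by -0.035 to 0.0033.

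Rpl22l1, which can take the place of Rpl22 in the ribosome, went the other way without passing the fold limit. It read 13.19 on both Cop1KO arrays, against 12.91 and 12.93 on the control arrays, a difference of 0.27 with an adjusted p of 0.0266. Centred on the poly-A spikes it was 0.040. Rpl22, which binds small RNAs and in mice restrains Rpl22l1, was higher on all 3 of its probe sets, by 0.10, 0.25 and 0.68. The last of these, 1448398_s_at, rose, with 11.37 and 11.34 on the Cop1KO arrays, against 10.69 and 10.66 on the control arrays (adjusted p = 0.00231). Centred on the poly-A spikes this difference was 0.44 and the call was lost. Rps27l, a p53 target in human and mouse cells, read 12.15 and 12.12 on the Cop1KO arrays, against 12.23 and 12.22 on the control arrays (adjusted p = 0.336), and its other 2 probe sets were also lower. The testis and muscle forms Rpl39l and Rpl3l read 4.05 and 3.85 in the Cop1KO pool, against 4.23 and 3.83 in the control pool, near the bottom of the range, and did not pass either limit.

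For some genes the difference of a dim probe set departed from that of the bright ones. For others, such as Rps18, Rpsa and Rps4x, it lay close to theirs. The dim probe sets of these genes read low, with means of 4.11, 4.45 and 6.46 for Rps18, 3.91 for Rpsa and 6.00 for Rps4x. So near the bottom of the range a small difference says little about the gene. Of the 48 members 24 had several probe sets, up to 6. In all, 6 of the 104 probe sets rose and 4 fell, against 6.76% and 6.96% of all probe sets, or 13.7% in either direction. An adjusted p under 0.05 alone was reached by 20 of them, 13 higher and 7 lower, against 32.7% of all probe sets (15.1% higher and 17.6% lower). Both Cop1KO arrays lay above both control arrays for 62 and below them for 15, against 32.6% and 32.7% of all. Of the 56 that were not the brightest of their gene 5 rose and 3 fell, against 8.88% and 8.15% of all such probe sets. Rps24, a small subunit protein made in several spliced forms, was one such gene. Its 4 probe sets of at least 13 differed by 0.056 to 0.20. Another, 1455195_at, read 8.76 and 8.70 on the Cop1KO arrays, against 7.48 and 7.51 on the control arrays, and rose 2.35-fold (1.24, adjusted p = 0.0008). The dimmest, at a mean of 5.35, differed by only 0.080, with overlapping groups. Rpl41, the smallest of the ribosomal proteins, had 2 bright probe sets at 0.016 and -0.078. Its dim probe set 1433530_at read 8.89 and 8.87 on the Cop1KO arrays, against 7.65 and 7.66 on the control arrays, and rose 2.34-fold (1.23, adjusted p = 0.000769). The other dim one, designed from the same source sequence, rose 2.02-fold (adjusted p = 0.00301).

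Rps10, on the beak of the small subunit, followed the same pattern. Its 5 brighter probe sets differed by -0.0044 to 0.18, and the sixth, 1436384_at, read 7.35 and 7.48 on the Cop1KO arrays, against 6.38 and 6.46 on the control arrays, and rose 1.99-fold (0.99, adjusted p = 0.00169). Rps9, which lies beside the path of the mRNA, went the opposite way. Its brightest probe set read 13.63 in the Cop1KO pool and 13.61 in the control pool, while its dimmest, 1426958_at, read 6.43 and 6.41 on the Cop1KO arrays, against 7.13 and 7.09 on the control arrays, and fell by 0.69 (adjusted p = 0.00222). Between them in level, 1434624_x_at was higher by 0.32, past the adjusted p (0.0424) and short of the fold limit. The 2 dim probe sets of Rps20, a protein of the head, share a source sequence and differed by -0.43 and -0.45, past the adjusted p and short of the fold limit, beside 0.012 and 0.064 on the bright ones. Which part of a transcript each probe set covers was not examined here.

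**Figure D2:**
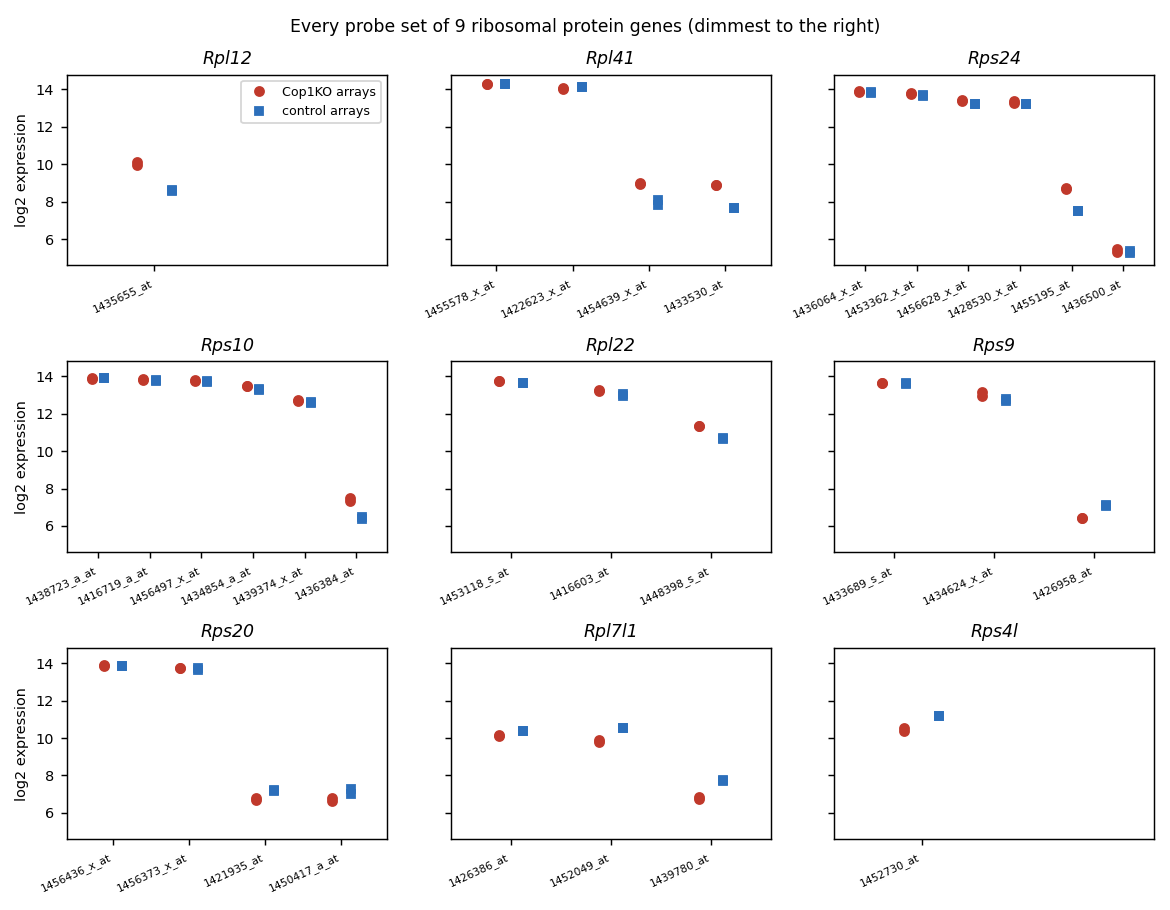
Log2 expression (vertical axis) on each array for every probe set of 9 genes, ordered within a gene from the brightest to the dimmest, with Cop1KO arrays as red circles left of the control arrays as blue squares. The groups lie close together on probe sets near 14 and farther apart on several dim ones, upward for Rpl41, Rps24 and Rps10 and downward for Rps9, Rps20 and Rpl7l1.

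Level and difference were also described together, with classes of mean log2 value chosen after the data were seen. Of the 104 probe sets, 60 had a mean of at least 13, and none of these passed both limits in limma while 3 passed the adjusted p alone. Among all 273 probe sets so bright, 1.83% were called. Of the 14 between 10 and 13, 1 rose and 2 fell (10.8% of all 3363 called, 5.11% upward). Of the 19 between 6 and 10, 5 rose and 2 fell (21.9% of all 19330 called, 9.68% upward), and their differences ran from -0.94 to 1.45. Of the 11 under 6, none was called by limma, also not by the adjusted p alone, against 7.17% of all 22071 called (4.51% upward). The 68 other genes with a brightest probe set of at least 13 ran from -0.41 to 0.93, with 3 rises and 0 falls. They were not matched to the members in level within that class. By the adjusted p alone 1 of the 34 member genes so bright was past the limit. It was passed by 16.7% of all genes so bright, members included, and by 16 of the 68 others. Whether the brightest spots were saturated was not tested.

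**Figure D3:**
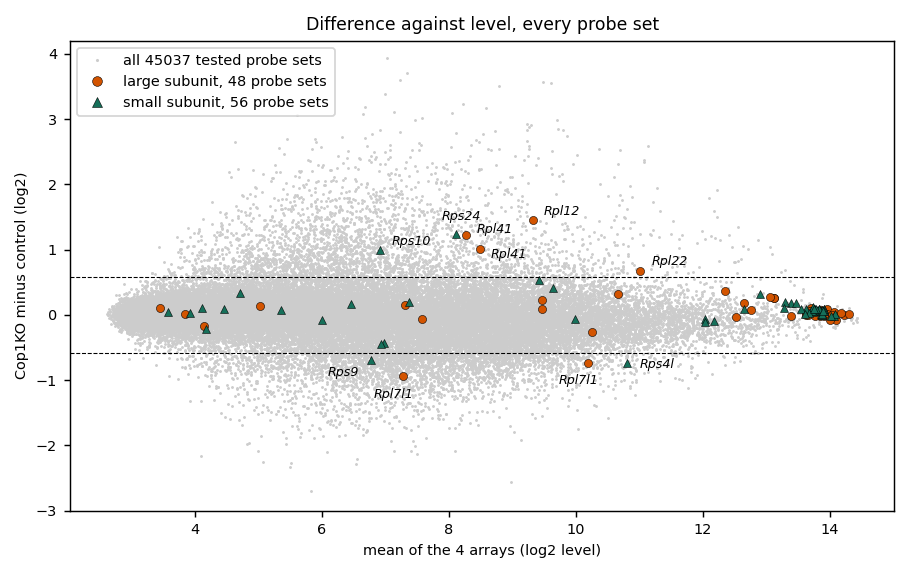
Cop1KO minus control difference (log2, vertical axis) against the mean log2 value of the 4 arrays for all 45037 tested probe sets in grey, with the 48 large subunit probe sets as orange circles, the 56 small subunit probe sets as green triangles and dashed lines at the 1.5-fold limit. Called members are named, and the cluster at the right edge holds the 60 probe sets of at least 13.

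Probe sets that list several genes, with 1 of them a ribosomal protein gene by the rule, were counted without naming genes. There were 110 of them, of which 7 rose and 1 fell, with a median of 0.082, against 6.76% and 6.96% of all probe sets and their median of 0.0067. The 74 of at least 13 held 0 calls in limma, or 1 by the adjusted p alone. Outside the name rule, Fau, which encodes a ubiquitin-like protein fused to a small subunit protein, read 13.71 in the Cop1KO pool and 13.60 in the control pool, and Rps3a1 read 13.98 in the Cop1KO pool and 13.95 in the control pool, neither of them passing a limit. Of 19 translation factor and other genes whose mRNAs are known or reported to carry a TOP sequence, 18 were measured, with a median of 0.093. They held 0 rises and 0 falls, against 3.58% and 8.06% of all genes. The highest was Eif4b, a helper of the cap-binding helicase, at 0.51, which passed the adjusted p (0.00540) and not the fold limit. Ribosomal proteins of the mitochondrion, 76 genes, held 0 rises and 12 falls with a median of -0.30, against 3.58% and 8.06% of all genes and their median of -0.025. The cytosolic genes held 1 rise and 1 fall, that of the pseudogene Rps4l, with a median of 0.029. That contrast was not tested.

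The first bases of the genes were read from RefSeq promoter sequences of build GRCm38.p6, which held 42 of the 48 genes with 50 annotated start sites. A TOP start was searched on the sense strand as a C followed by 3 pyrimidines (each of them C or T). It lay exactly at the annotated start for 16% of the members' start sites and for 3.76% of all 32851 start sites. Within 5 bases of the start it occurred at 48% of the members' sites and at 30.6% of all sites. CTTTCC or CTTTTC, on either strand of the 30 bases around the start, occurred at 20% of the members' sites and at 4.58% of all. The median difference was 0.041 for the 22 member genes with such a C within 5 bases of any of their listed start sites and 0.042 for the 20 without. Where their mRNAs begin in these embryos was not tested, so the 20 cannot be taken as genes without a TOP sequence. To set the calls beside these letters, the 30 bases around the start are printed 5′ to 3′ on the gene's strand for genes with a called probe set and for Rps25, the nearest to the limit. Rps24 has 2 listed start sites, of which the one with such a run is printed. Rpl22 has 2, neither with such a run, and is not printed, and Rps4l is among the genes without an entry. The annotated start is base 16, and capitals mark a C within 5 bases of it that begins such a run, with the pyrimidines that follow.
Rpl12 (chr2:32961697-32961726, plus strand): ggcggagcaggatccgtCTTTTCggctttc
Rps24 (chr14:24490663-24490692, plus strand): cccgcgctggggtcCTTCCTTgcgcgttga
Rps10 (chr17:27635230-27635259, minus strand): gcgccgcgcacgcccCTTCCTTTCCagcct
Rps9 (chr7:3704026-3704055, plus strand): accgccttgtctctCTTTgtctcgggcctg
Rpl41 (chr10:128549154-128549183, minus strand): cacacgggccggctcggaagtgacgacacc
Rpl7l1 (chr17:46782642-46782671, minus strand): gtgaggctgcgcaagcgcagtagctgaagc
Rps25 (chr9:44407699-44407728, plus strand): tttttccgacatcttagcgaggctgctgtg
Among the genes printed, those with a risen probe set are of both kinds, Rpl12, Rps24 and Rps10 with such a run and Rpl41 without one. So are those with a fallen probe set, Rps9 with and Rpl7l1 without. A match here is a match of letters only, at the annotated start.

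The RNA partner of these proteins read differently. The 18S ribosomal RNA of the small subunit has 3 control probe sets on the array, which were kept out of the tests. At its 3′ end the signal was 13.03 and 13.12 on the Cop1KO arrays, against 11.79 and 11.81 on the control arrays, which is 2.42-fold. At its 5′ end it was 12.64 and 12.78 on the Cop1KO arrays, against 11.56 and 11.61 on the control arrays (2.17-fold), and in the middle 12.65 and 12.80, against 11.03 and 11.09 (3.17-fold). All 3 were higher on each Cop1KO array than on any control array. Control probe sets of Actb differed by 0.033 to 0.079 and those of Gapdh by 0.15 to 0.17. The 3′ minus the 5′ value of Actb was 0.16 and 0.14 on the Cop1KO arrays, against 0.19 and 0.14 on the control arrays. That of Gapdh was -0.040 and -0.050 on the Cop1KO arrays, against 0.0032 and -0.057 on the control arrays. For 18S it was 0.39 and 0.34 on the Cop1KO arrays, against 0.23 and 0.20 on the control arrays, so higher on both Cop1KO arrays. Ribosomal RNA has no poly-A tail, and how much of it enters the labelled cRNA was not measured, so its part in the differences above was not tested.

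**Figure D4:**
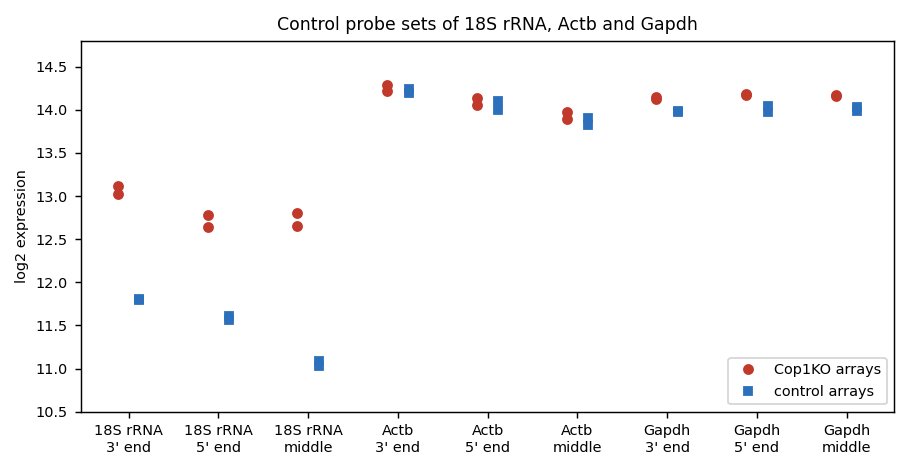
Log2 expression (vertical axis) of the control probe sets for 18S ribosomal RNA, Actb and Gapdh at their 3′ end, 5′ end and middle, with the 2 Cop1KO arrays as red circles left of the 2 control arrays as blue squares. The 18S points lie between 12.64 and 13.12 for Cop1KO and between 11.03 and 11.81 for control arrays, while the Actb points of the genotypes lie close together.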

How the data were processed

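The authors deposited 1 table of log2 expression values for 4 arrays, and the submitters' processing notes name RMA and affy, with versions not given in the sources used here. This method forces a common distribution of probe intensities on all arrays, so total RNA amounts cannot be compared. Of 45101 probe sets, 64 controls were left out and 45037 tested with limma 3.58.1 (R 4.3.3; lmFit and eBayes, genotype as the only term), with Benjamini-Hochberg adjustment over all of them. The fit was tested on simulated data. The platform's annotation names 34945 of them with 1 gene. The 932 with several genes and 9160 unlisted ones were left unnamed. All 48 member symbols matched the RefSeq table (GRCm38.p6) by gene number. A gene's brightest probe set has the highest mean over the 4 arrays.

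Named members were those called or nearest the fold limit, the 6 highest and 6 lowest, any with probe sets called in both directions, the paralogs, and those of the stalk and 5S lists. From other lists the most changed were named. Others, among them dim probe sets, were chosen after their values were seen. Members and lists were chosen with earlier results of these data known. Precision is limited by the single RNA pool per genotype and the number of arrays. Same-numbered arrays are portions of pools and share only a number.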

Additional observations from a re-analysis of the deposited data

How the results depend on the processing

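Of 13 alternative settings, 12 were planned, and centring on the poly-A spikes, whose medians were 7.67 and 7.83 on the Cop1KO arrays against 7.40 and 7.63 on the control arrays, was chosen after seeing the data. It moved the median of all genes to -0.26 from -0.025, and centring on array medians moved it to -0.088. Called genes numbered 2 as reported and 6 with the brightest plain probe set (Rpl41, Rps24 and Rps10 up and Rps9 down besides Rpl12 and Rps4l). With paralogs left out there was 1, and without one array there were 2 to 4 (4 without Cop1KO replicate 1, where Rps25 passed, and Rpl7l1 with another probe set, 1452049_at, as its brightest). Rpl7l1 also passed with the mean of its probe sets (-0.65). Called probe sets numbered 10 as reported, 7 with paralogs left out, and 10 or 11 without one array.

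The large and small subunit medians were 0.0081 and 0.0076 with quantile normalization once more, -0.040 and -0.019 with array medians, and 0.029 and 0.040 without the dimmest 40% of probe sets. They were 0.049 and 0.054 with the mean of all probe sets, 0.037 and 0.063 with plain probe sets, 0.029 and 0.053 without paralogs, and -0.21 and -0.19 with the spikes. Without one array they ran from 0.013 to 0.033 (large) and from 0.029 to 0.056 (small). Large minus small was 0.00044 with quantile normalization, -0.011 without dim probe sets, -0.0051 with the mean of probe sets and -0.025 with plain ones, and -0.027 to -0.0034 without one array. The cause of these shifts was not tested. With the spikes, differences turned for Rpl11 (-0.16), Rpl14 (-0.011), Rpl3l (-0.21), Rplp0 (-0.23), Rplp2 (-0.20) and Rps27 (-0.034). With array medians they turned for Rpl3l (-0.044), Rplp0 (-0.059) and Rplp2 (-0.032), with quantile normalization for Rpl3l (-0.021) and Rplp0 (-0.0021), and without Cop1KO replicate 1 for Rplp0 (-0.0038, up to 0.012 without another array). None of these had a call. Deviations of same-numbered arrays correlated at 0.056, and with the replicate number as a block, the replicate block fit, 2 genes and 10 probe sets were called.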
